A study of Homo sapiens with 12 samples.

Results

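N6-methyladenosine (m6A) is the methyl mark on internal adenosines of messenger RNA, and 10 genes that write, read or erase it were followed in HEK293T cells and in the clone R1. They were chosen by name. METTL3, METTL14 and WTAP encode writers, YTHDF1, YTHDF2, YTHDF3, YTHDC1 and YTHDC2 encode readers, and FTO and ALKBH5 encode erasers. All 10 were found among the 23500 genes listed. YTHDC1 had 2 entries with identical counts and was counted once, so that 11 entries stood for the 10 genes.

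METTL3 carries the catalytic site of the writer complex, METTL14 helps it to hold the RNA, and WTAP places the pair in nuclear speckles. The YTHDF proteins bind m6A in the cytoplasm, where YTHDF2 is best known for bringing a deadenylase to methylated messages and so for their decay, whereas YTHDC1 binds the mark in the nucleus. The methyl group comes from S-adenosylmethionine (SAM), which cells make from methionine, so that these genes stand at the RNA end of methionine metabolism.

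HEK293T is a human embryonic kidney line that carries the large T antigen of SV40 and that needs methionine in its medium to proliferate. R1 is a clone of HEK293T cells that proliferates when homocysteine takes the place of methionine. Both were kept for 12 h in medium with methionine (+Met) or in medium without it and with homocysteine (−Met+Hcy), which gave 4 groups of 3 RNA-seq libraries. R1 is 1 clone, so a difference between R1 and HEK293T cells cannot be told apart from a difference between any clone and its parent. Nothing in the sources used here says that the 3 libraries of a group came from separate cultures, and p-values then measure the spread between these libraries, which may be technical. The libraries held 12664158 to 18771349 counts. Because RNA of whole cultures was counted, fewer cells of a type and less RNA per cell cannot be told apart.

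The labelled cell type was compared with marker genes. Of 5 genes known in the HEK293 lineage, NEFL, NEFM, CDH2 and LIN28B were counted at 140 or more in every library, whereas PAX2 had 3 to 19 counts in the HEK293T libraries and 48 to 99 in the R1 libraries. The leukocyte genes PTPRC, CD3E and CD79A had at most 7 counts in any library and summed to at most 0.710 CPM in any library. Of 6 genes that mark mammary carcinoma cells, KRT7 and KRT19 had at most 1 count, and EGFR, the most abundant, made up most of their sum of 2.85 to 6.14 CPM in the HEK293T libraries and 8.02 to 17.3 CPM in the R1 libraries. Of 4 fibroblast genes, COL1A1 was the most abundant, COL1A2 had at most 4 counts, and their sum was at most 24.2 CPM in the HEK293T libraries and 23.4 to 43.1 CPM in the R1 libraries. R1 differed from HEK293T cells in several of these genes in +Met: the log2 fold change was 3.22 for PAX2 (adjusted p = 0.00255), 1.68 for CDH2 (adjusted p = 0.0011), 1.52 for EGFR (adjusted p = 0.0183), 1.40 for COL1A1 (adjusted p = 0.028), −1.49 for NEFM (adjusted p = 0.0167) and −0.86 for LIN28B (adjusted p = 0.0223). EGFR (1.80, adjusted p = 0.00605) and COL1A1 (1.15, adjusted p = 0.0491, with groups that overlapped) also passed in −Met+Hcy, as did PAX2 (2.35, adjusted p = 0.00774), CDH2 (1.55, adjusted p = 0.00105) and NEFM (−1.43, adjusted p = 0.0146). The part of this difference between the lines in the results below was not tested.

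The third library of R1 in −Met+Hcy stood apart from the other 11. Its log2 CPM differed from that of its 2 group mates with an SD of 1.40 across genes, against 0.183 to 0.527 in the other libraries. The deviation followed the GC content of the transcripts, with a Spearman rho of −0.744 over 11041 genes that share the library. Among the members, ALKBH5, with the highest GC content (57.6%), was lowest there at −1.81 on the log2 scale, and YTHDC1 (40.3% GC) was highest at 1.06. The middle 50% of 11643 genes lay between −1.01 and 0.65. WTAP at 0.83 and METTL14 at 0.75 were also above that range, and the other 6 members were within it. For the members, and for the genes of the pathway that passed, the value without this library is therefore given below where it changed a call or a direction or moved a log2 fold change by over 1.5 times. In the other 11 libraries the rho with GC content was −0.339 to 0.538. Over all libraries the rho with transcript length was −0.459 to 0.541. Log2 fold changes of the HEK293T response had a rho of 0.178 with length, and its part in the member values was not tested.

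**Figure D1:**
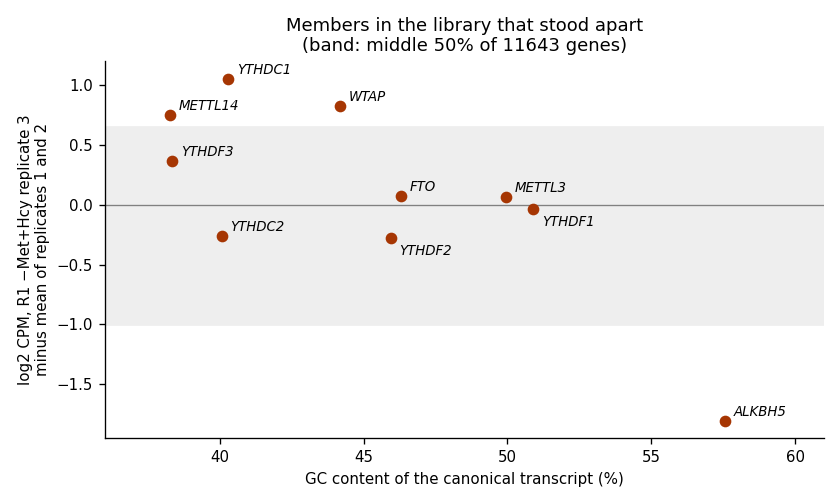
Deviation of each member in the third R1 −Met+Hcy library (log2 CPM minus the mean of the first and second) against the GC content of its canonical transcript in percent, with each point 1 gene and the grey band the middle 50% of 11643 genes. ALKBH5 lies lowest at −1.81 and YTHDC1 highest at 1.06.

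Levels are given as CPM, the count of a gene relative to the total of its library, with the totals scaled by TMM, a normalisation that takes most genes as unchanged. On unscaled totals METTL3 had a mean of 118 CPM in HEK293T +Met and 90.0 in HEK293T −Met+Hcy, and YTHDF2 169 and 481. Per kilobase of the canonical transcript, WTAP was the most abundant member in HEK293T cells in +Met at 87.8 CPM per kb ± 4.18 (SD, n = 3), followed by YTHDF2 at 72.8 ± 1.03 and METTL3 at 70.5 ± 3.68. The last pair differed by less than their spread. METTL14 was the least abundant member at 2.79 CPM per kb ± 0.04, below FTO at 3.88 ± 0.46. The order at the top depended on the transcript chosen: with the longest transcript of each gene, WTAP stood at 50.5, METTL3 at 55.3 and YTHDF2 at 70.7 CPM per kb. The remaining 5 members lay between 6.90 (YTHDC1) and 28.3 (ALKBH5) CPM per kb.

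**Figure D2:**
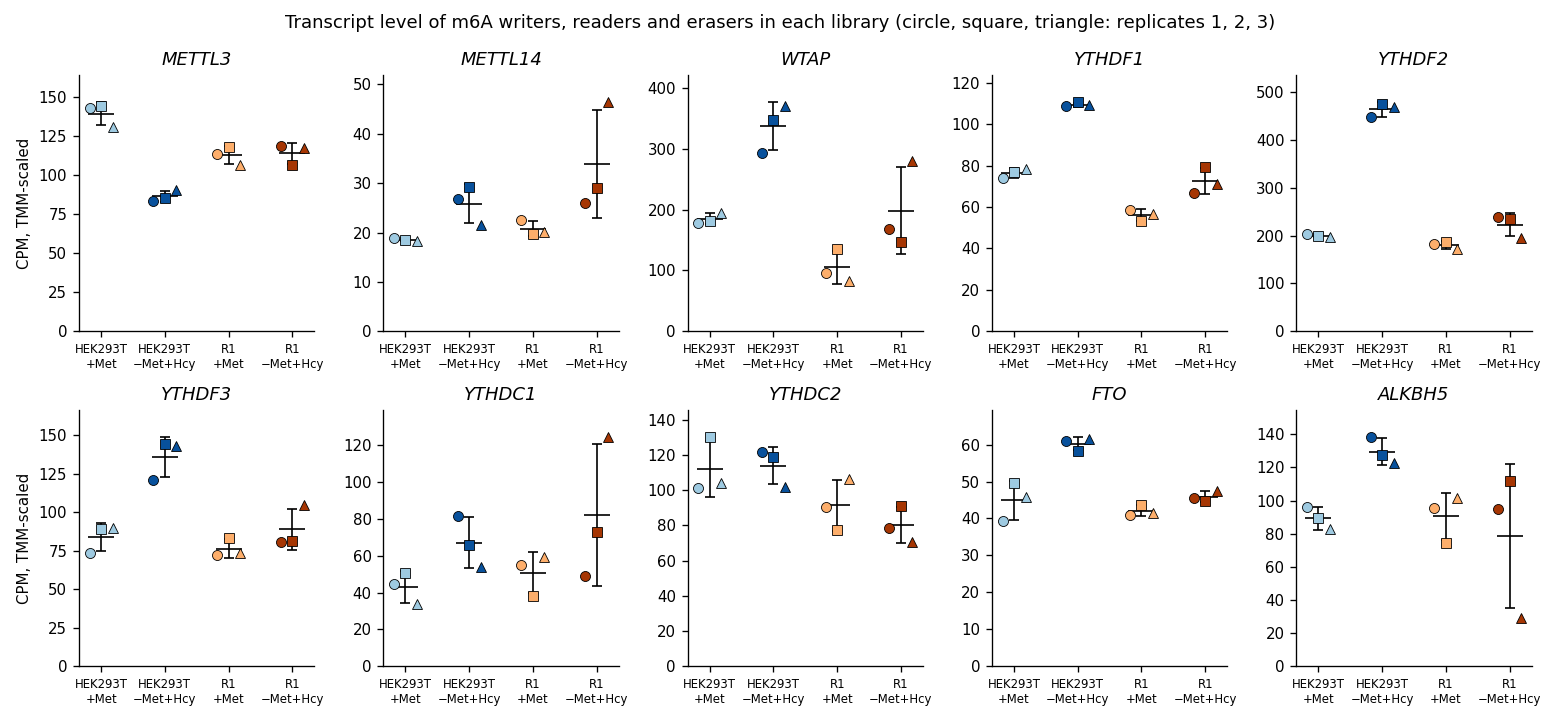
TMM-scaled CPM (linear axis from 0) of the 10 members in the 12 libraries, by group, with circles, squares and triangles for replicates 1, 2 and 3, and a dash and bars for the mean and SD of 3 libraries. METTL3 is lower and YTHDF2 higher in HEK293T −Met+Hcy than in HEK293T +Met with no overlap, and the third R1 −Met+Hcy library sets the wide bars of ALKBH5, YTHDC1, WTAP and METTL14.

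The first comparison asked how the medium without methionine bore on these genes in the line that needs it. In HEK293T cells METTL3, the catalytic writer, fell, and the readers YTHDF2 and YTHDF3 rose. METTL3 (chr14:21498133-21511342, minus strand, GRCh38) stood at 143, 144 and 131 CPM in +Met and at 83.7, 85.8 and 90.7 CPM in −Met+Hcy. Each of the 3 −Met+Hcy libraries was below each of the +Met libraries. Its log2 fold change was −0.69 (SE 0.15), or 0.622 times the +Met level, with an adjusted p of 0.0171 in the edgeR quasi-likelihood fit (Benjamini-Hochberg, 17162 genes). The fall passed the threshold of 0.05 in 17 of 25 alternative analyses. Among the others, it did not pass when any single HEK293T library was left out (adjusted p 0.0542 to 0.0943), nor with library totals in place of TMM, where the log2 fold change was −0.39 (adjusted p = 0.101) and the median of all genes stood at 0.33. METTL3 shares 388 of its 5861 exon bases with TOX4 on the opposite strand, and whether the counting used strand is not given in the sources used here. TOX4 had a log2 fold change of −0.10 (adjusted p = 0.727).

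The other writers did not move with METTL3. WTAP, the scaffold, stood at 178, 181 and 195 CPM in +Met and at 293, 347 and 370 CPM in −Met+Hcy. These groups did not overlap, and the log2 fold change of 0.87 (SE 0.26) had an adjusted p of 0.0637. METTL14, the partner of METTL3, stood at 18.8, 18.5 and 18.4 CPM in +Met and at 26.9, 29.1 and 21.5 CPM in −Met+Hcy, with a log2 fold change of 0.48 (SE 0.23, adjusted p = 0.246). Both were higher in all 3 −Met+Hcy libraries and neither passed the threshold. WTAP shares 437 of its 6413 exon bases with SOD2 on the opposite strand, which had a log2 fold change of −0.33 (adjusted p = 0.224).

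YTHDF2, the reader tied to decay of methylated messages, was the only member past both thresholds, an adjusted p under 0.05 and an absolute log2 fold change over 1. YTHDF2 (chr1:28736621-28769775, plus strand, GRCh38) stood at 202, 200 and 197 CPM in +Met and at 446, 475 and 468 CPM in −Met+Hcy. The groups were far apart, with SDs of 2.83 and 14.9 CPM. The log2 fold change was 1.21 (SE 0.15), a 2.32-fold rise with an adjusted p of 0.00139, and it passed both thresholds in all 25 alternatives, from 1.15 to 1.51. This was 1 of 10 members, in a comparison that called 4.63% of the genes tested (3.04% higher, 1.59% lower).

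YTHDF3, which binds m6A in the same way, stood at 73.3, 89.0 and 89.5 CPM in +Met and at 121, 144 and 143 CPM in −Met+Hcy. Its log2 fold change was 0.69 (SE 0.17, adjusted p = 0.0337), and without any single HEK293T library it lay above the threshold, at 0.0635 to 0.155. It passed in 4 of the 12 fits that left out 1 library. YTHDF1, known for its part in translation, stood at 73.9, 77.1 and 78.5 CPM in +Met and at 109, 110 and 109 CPM in −Met+Hcy. Its groups did not overlap, but the log2 fold change of 0.52 (SE 0.15) had an adjusted p of 0.0556. The nuclear reader YTHDC1 had a mean of 43.0 CPM ± 8.63 (SD, n = 3) in +Met and 67.2 ± 13.9 in −Met+Hcy, with an adjusted p of 0.259. The helicase YTHDC2 was the only member whose groups overlapped, at 112 CPM ± 15.9 and 114 ± 10.7. Its log2 fold change was 0.03, with a 95% confidence interval of −0.40 to 0.46.

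Neither eraser passed the threshold in HEK293T cells. FTO had 45.0 CPM ± 5.31 (SD, n = 3) in +Met and 60.2 ± 1.79 in −Met+Hcy, and ALKBH5 had 89.3 ± 6.89 and 129 ± 8.04. Both were higher in all 3 −Met+Hcy libraries. The log2 fold change was 0.42 for FTO (SE 0.15, adjusted p = 0.124) and 0.54 for ALKBH5 (SE 0.36, adjusted p = 0.41).

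On adjusted p alone, 3 of 10 members passed in HEK293T cells, 2 higher and 1 lower, against 7.03% of all genes tested (4.25% higher, 2.78% lower). Those shares include genes with few counts. Of 11643 genes with a mean log2 CPM over 2, 589 passed as higher and 443 as lower. With library totals in place of TMM, 1790 genes were called higher and 213 lower on adjusted p, against 730 and 477 with TMM. Groups did not overlap for 9 of 10 members, 8 higher and 1 lower, against 45.4% of all genes (24.8% higher, 20.6% lower). The median log2 fold change was 0.53 over the members and 0.03 over all genes. Without the third R1 −Met+Hcy library, which widens the spread that all comparisons share, 8 members passed in HEK293T cells, 7 higher and METTL3 lower, against 27.7% of all genes. The added members were WTAP (adjusted p = 0.00355), YTHDF1 (0.00585), ALKBH5 (0.0154), FTO (0.0201) and METTL14 (0.0226), and their fold changes were the same to 2 decimals.

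**Figure D3:**
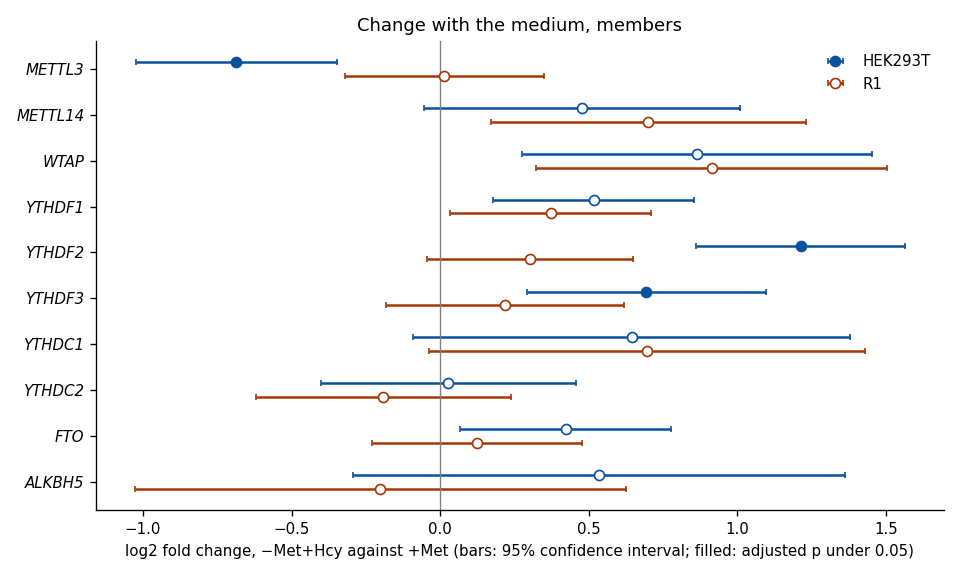
Log2 fold change of each member between −Met+Hcy and +Met in HEK293T cells (blue) and R1 (brown), with filled points for an adjusted p under 0.05. Bars are 95% confidence intervals from the SE and a t distribution with 8 degrees of freedom. The filled points are METTL3 at −0.69, YTHDF2 at 1.21 and YTHDF3 at 0.69, all in HEK293T cells.

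Because YTHDF2 and METTL3 moved in opposite directions, the sequence before each start site is shown, from RefSeq on GRCh38.p14, 250 bases 5′ to 3′ on the strand of the gene. Capitals mark the GC box GGGCGG in YTHDF2 and the ETS core CCGGAA in METTL3, searched on both strands.
YTHDF2, chr1:28736374-28736623, plus strand: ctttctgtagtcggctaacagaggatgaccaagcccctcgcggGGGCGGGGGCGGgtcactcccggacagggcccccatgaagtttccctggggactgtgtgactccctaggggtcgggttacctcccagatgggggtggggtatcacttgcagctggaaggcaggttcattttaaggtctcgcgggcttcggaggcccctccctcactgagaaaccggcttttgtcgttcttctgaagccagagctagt
METTL3, chr14:21511341-21511590, minus strand: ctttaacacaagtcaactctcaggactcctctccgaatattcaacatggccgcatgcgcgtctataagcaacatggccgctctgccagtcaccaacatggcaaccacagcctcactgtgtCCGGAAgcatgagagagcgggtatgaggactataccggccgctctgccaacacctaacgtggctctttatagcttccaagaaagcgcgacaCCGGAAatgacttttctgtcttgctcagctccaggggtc
YTHDF2 held 2 GC boxes and no ETS core, and METTL3 held 2 ETS cores and no GC box. Neither motif was particular to them: WTAP, YTHDF1 and YTHDC1 also held 2 GC boxes each and YTHDC2 and ALKBH5 held 1 each, METTL14 also held 2 ETS cores, and FTO held neither. At least 1 GC box stood in 42.6% of 35116 promoters of this length, and at least 1 ETS core in 14.5%. The core TGATGNAA, which is known from genes of the amino acid response, was in none of the 9 members that had an entry and in 3.14% of all promoters. YTHDC1 held 4 matches to the ATF/CREB motif TGACGT and YTHDC2 held 2. The other members with an entry held no match to it, and 7.10% of all promoters held at least 1. YTHDF3 was not among the entries used.

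Ratios of counts within a library do not depend on the scaling of libraries. They carry the lengths of both transcripts, so only their change between libraries was read, and no test was made of them. Deviations of single genes within a library remain in them. In the third R1 −Met+Hcy library these were 0.07 for METTL3, 0.75 for METTL14 and 0.83 for WTAP on the log2 scale. METTL3 counts per METTL14 count were 7.59, 7.82 and 7.14 in HEK293T +Met and 3.12, 2.94 and 4.21 in HEK293T −Met+Hcy. METTL3 counts per WTAP count went from 0.80, 0.80 and 0.67 to 0.29, 0.25 and 0.25, and in R1 from 1.18, 0.87 and 1.28 to 0.70, 0.73 and 0.42. Both ratios were lower in every −Met+Hcy library of HEK293T cells, and METTL3 per WTAP also in every one of R1. YTHDF2 counts per METTL3 count were 1.42, 1.38 and 1.50 in +Met and 5.33, 5.54 and 5.16 in −Met+Hcy. In R1 the same ratio was 1.61, 1.58 and 1.60 in +Met and 2.02, 2.19 and 1.66 in −Met+Hcy. The rise was thus present in every library of both lines, and its mean went from 1.43 to 5.34 in HEK293T cells and from 1.60 to 1.96 in R1.

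Within the YTHDF family, YTHDF2 held 57.9, 54.6 and 53.9% of the counts of YTHDF1, YTHDF2 and YTHDF3 in HEK293T +Met and 66.0, 65.1 and 65.0% in HEK293T −Met+Hcy. The groups did not overlap. In R1 the share was 58.3, 57.9 and 56.9% in +Met and 61.8, 59.3 and 52.6% in −Met+Hcy, where the groups overlapped through the third −Met+Hcy library. METTL3 counts per METTL14 count in R1 were 5.05, 6.03 and 5.29 in +Met and 4.56, 3.67 and 2.54 in −Met+Hcy, again lower in every −Met+Hcy library. The lowest value, 2.54, was that of the third library, where METTL14 deviated by 0.75 on the log2 scale.

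**Figure D4:**
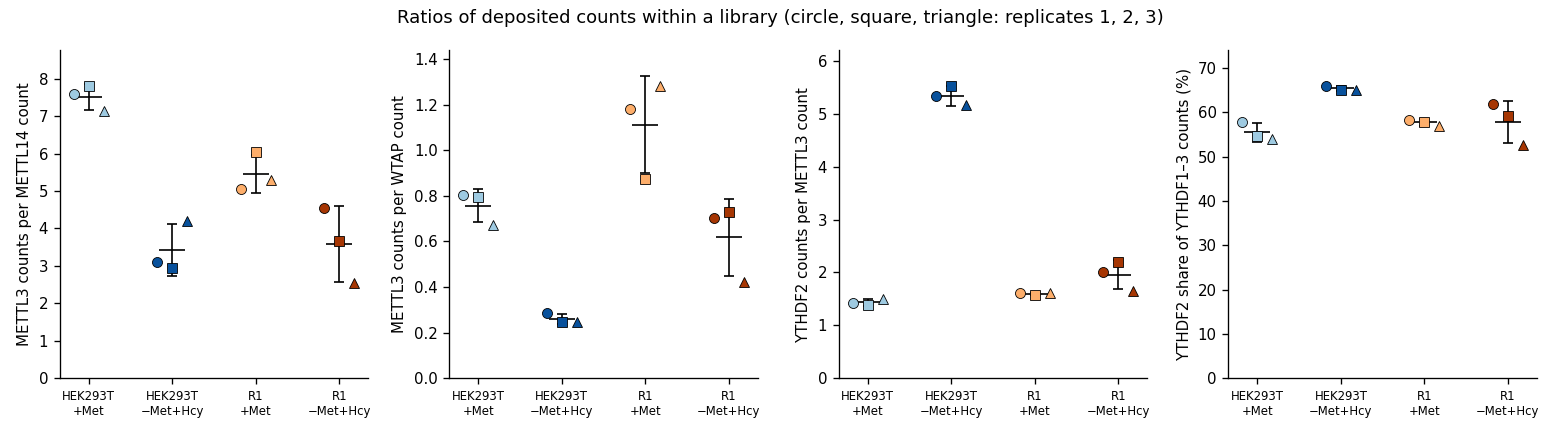
Ratios of deposited counts within each library (linear axes from 0), by group, with symbols for replicates 1, 2 and 3 and a dash and bars for the mean and SD of 3 libraries. In HEK293T cells METTL3 per METTL14 is lower in −Met+Hcy, at 2.94 to 4.21 against 7.14 to 7.82, and YTHDF2 per METTL3 is higher, at 5.16 to 5.54 against 1.38 to 1.50.

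Genes that work with the members were taken from lists of the pathway. Of 5 further subunits of the writer complex, 1 rose in HEK293T cells and none fell, in a comparison where 4.25% of all genes passed the adjusted p as higher and 2.78% as lower. This was RBM15, which guides the complex to its targets, at 65.0, 87.6 and 71.1 CPM in +Met and 229, 195 and 179 CPM in −Met+Hcy. Its log2 fold change was 1.43 (SE 0.21, adjusted p = 0.00323), and it passed in all 25 alternatives. The remaining subunits VIRMA, ZC3H13, CBLL1 and RBM15B had log2 fold changes of 0.05 to 0.84 with adjusted p of 0.121 to 0.962. Of 9 other proteins reported to read m6A, RBMX fell, from 547 CPM ± 31.0 (SD, n = 3) to 343 ± 29.7, with a log2 fold change of −0.67 (SE 0.16, adjusted p = 0.0296). That call was lost when any single HEK293T library was left out (adjusted p 0.0858 to 0.121) and passed in 5 of the 12 fits that left out 1 library. It was also lost with library totals in place of TMM, at −0.39 (adjusted p = 0.118). None of the 12 subunits and partners of the CCR4-NOT deadenylase, which YTHDF2 brings to its targets, passed, with a median log2 fold change of −0.04. At an unadjusted p under 0.05, 3 of these 12 were counted, 1 higher and 2 lower, where 22.4% of all genes were.

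**Figure D5:**
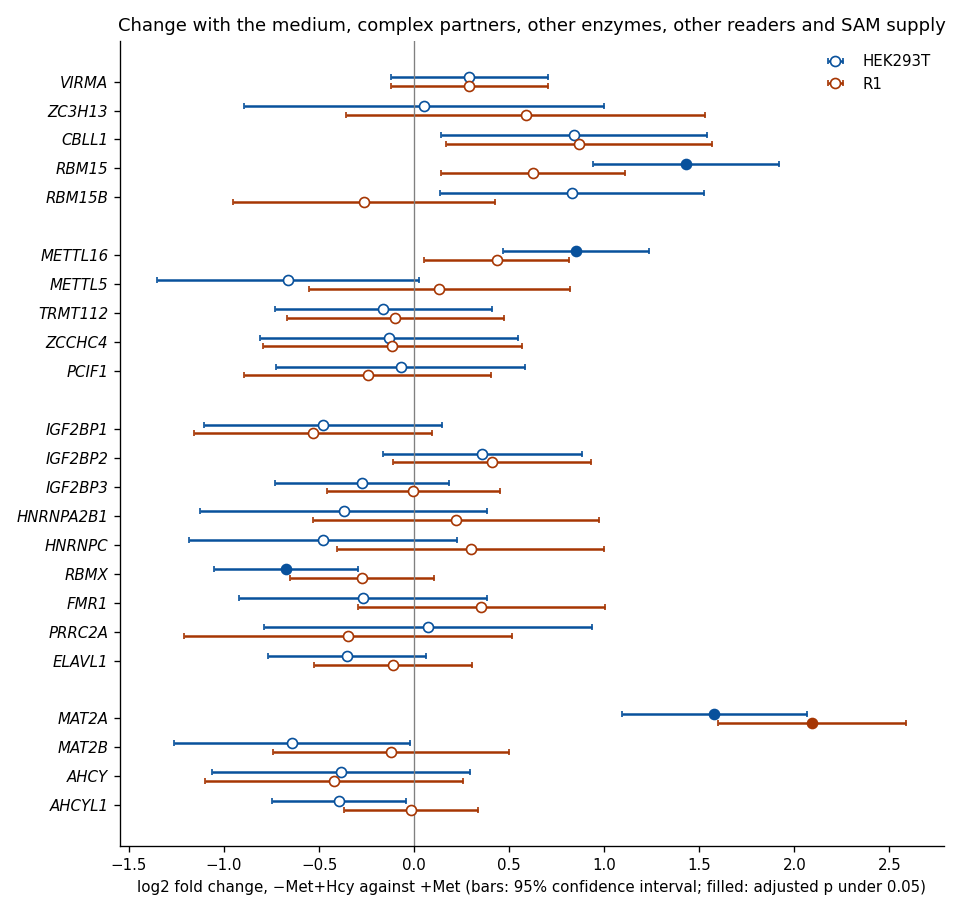
Log2 fold change between −Met+Hcy and +Met of further writer subunits, other RNA methyltransferases, other reported readers and genes of SAM supply (top to bottom, in 4 blocks), in HEK293T cells (blue) and R1 (brown), with 95% confidence intervals and filled points for an adjusted p under 0.05. RBM15 (1.43), METTL16 (0.85), RBMX (−0.67) and MAT2A (1.58) are filled in HEK293T cells and MAT2A (2.09) in R1.

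METTL16 and MAT2A join the m6A machinery to SAM. METTL16 is an m6A methyltransferase that works apart from the METTL3 complex, and MAT2A, which encodes the enzyme that makes SAM, is its best known messenger RNA target. In the HEK293T response 4.25% of all genes tested passed the adjusted p as higher and 2.78% as lower. Of 5 other methyltransferases and cofactors, METTL16 passed as higher and none as lower in HEK293T cells. The other 4 had negative log2 fold changes, from −0.66 (METTL5) to −0.07 (PCIF1), with adjusted p of 0.212 to 0.92. METTL5 was lower in every −Met+Hcy library. METTL16 stood at 51.4, 60.8 and 52.1 CPM in +Met and at 96.2, 103 and 97.4 CPM in −Met+Hcy, with a log2 fold change of 0.85 (SE 0.17, adjusted p = 0.0115). The call was lost without HEK293T +Met replicate 1 (adjusted p = 0.0645), HEK293T +Met replicate 3 (0.0643) or HEK293T −Met+Hcy replicate 2 (0.062). Of 4 genes of SAM supply, in a comparison where 7.03% of all genes passed the adjusted p, MAT2A alone passed. It stood at 300, 366 and 297 CPM in +Met and at 893, 993 and 992 CPM in −Met+Hcy, with a log2 fold change of 1.58 (SE 0.21, adjusted p = 0.00204).

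The sites that METTL16 is known to recognise are shown because they lie in the transcript that rose most among these genes. They were read from the last exon (9 of 9) of MAT2A, in the 3′ UTR on the plus strand of GRCh38, in windows of 27 bases. Capitals mark each match to TACAGAGAA or TACAGAAAA, and the positions are those of the capitals.
MAT2A, chr2:85543812-85543820: ggcgtaggcTACAGAGAAgccttcaag
MAT2A, chr2:85544599-85544607: gtgatgtcaTACAGAGAAgtcacaggg
MAT2A, chr2:85544784-85544792: tggtgtagcTACAGAGAAaccagcttc
MAT2A, chr2:85544899-85544907: tggcgtaagTACAGAGAAgccatcacc
MAT2A, chr2:85545014-85545022: aaggtgtccTACAGAAAAaccttgggt
MAT2A, chr2:85545122-85545130: ctggtgtggTACAGAGAAgccagcttg
MAT2A held 6 matches. Of 20046 canonical coding transcripts, 7.78% held at least 1, and 2 held as many as MAT2A. Whether these 2 include MAT2A itself is not given here. A match is a description of letters, and methylation was not measured.

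In R1, the clone that proliferates in −Met+Hcy, no member passed the threshold. MAT2A was the only gene that did, or 0.00583% of the genes tested. METTL3 stood at 114, 118 and 107 CPM in +Met and at 119, 107 and 118 CPM in −Met+Hcy. These groups overlapped, and the log2 fold change was 0.01 with a 95% confidence interval of −0.32 to 0.35 (−0.0074 without the third −Met+Hcy library). YTHDF2 stood at 183, 187 and 172 CPM in +Met and at 239, 234 and 195 CPM in −Met+Hcy. Its groups did not overlap, and the log2 fold change was 0.30 (SE 0.15, adjusted p = 0.622), or 0.39 (adjusted p = 0.519) without the third −Met+Hcy library. It passed in 1 of 25 alternatives, DESeq2 without that library (adjusted p = 0.0116).

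WTAP in R1 stood at 96.4, 136 and 83.3 CPM in +Met and at 169, 146 and 279 CPM in −Met+Hcy. Its log2 fold change of 0.91 (SE 0.26, adjusted p = 0.622) was 0.58 (adjusted p = 0.559) without the third −Met+Hcy library, which held the highest value. METTL14 likewise went from 0.70 to 0.40 and YTHDC1 from 0.70 to 0.27 without that library, and ALKBH5 turned from −0.20 to 0.19. The log2 fold changes of YTHDF1, YTHDF3, YTHDC2 and FTO were 0.37, 0.22, −0.19 and 0.13 with adjusted p of 0.622 to 0.772. Without that library YTHDF3 was at 0.087 and YTHDC2 at −0.11. By edgeR with all libraries, 4 members were higher and 0 lower at an unadjusted p under 0.05, where 7.78% of all genes passed, and 0 passed after adjustment. DESeq2 on all libraries also called 0 members, in a fit that called 40 genes (0.233%) on adjusted p and 28 past both thresholds. Groups did not overlap for 5 members, all higher, against 10.6% of all genes (4.89% higher, 5.72% lower). MAT2A stood at 168, 185 and 157 CPM in +Met and at 858, 808 and 510 CPM in −Met+Hcy, with a log2 fold change of 2.09 (SE 0.22, adjusted p = 0.00698), or 2.29 without the third −Met+Hcy library. That call was lost without any single R1 +Met library (adjusted p 0.0531 to 0.134) and with edgeR on the R1 libraries alone (adjusted p = 0.952). METTL16 had a log2 fold change of 0.43 (adjusted p = 0.622).

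The difference between the responses was tested as an interaction, the log2 fold change with the medium in R1 minus that in HEK293T cells. With all libraries no member passed (10 genes, or 0.0583% of those tested, did). YTHDF2 had the smallest p among the members, with a difference of −0.91 (SE 0.21, adjusted p = 0.212). Without the third R1 −Met+Hcy library the difference was −0.82 (SE 0.17, adjusted p = 0.0326), in a comparison that then called 1.69% of genes. DESeq2 on all 12 libraries gave −0.90 with an adjusted p of 4.48e-05. METTL3 followed with a difference of 0.70 (SE 0.21, adjusted p = 0.328), and 0.68 (adjusted p = 0.0689) without that library. DESeq2 on all libraries gave 0.71 with an adjusted p of 0.00299. YTHDF2 passed in 4 of 23 alternatives and METTL3 in 3, each with DESeq2 or with the third R1 −Met+Hcy library left out, and the directions were the same in these fits. For METTL14, WTAP and YTHDC1 the difference was 0.22, 0.05 and 0.05 with all libraries and −0.07, −0.28 and −0.38 without the third library. ALKBH5 had a difference of −0.74 and YTHDC2 one of −0.22 with all libraries, and of −0.34 and −0.13 without the third. YTHDF1, YTHDF3 and FTO were at −0.14, −0.48 and −0.30, with adjusted p of 0.549 to 0.858. YTHDF3 passed in 1 of 23 alternatives, DESeq2 without the third library (adjusted p = 0.0411). MAT2A had a difference of 0.51 (SE 0.29, adjusted p = 0.584) and METTL16 one of −0.42 (adjusted p = 0.575). MAT2A passed in 2 of 23 alternatives, with differences of 0.21 to 0.76, and METTL16 in 1, with differences of −0.76 to −0.35, and each passing fit left out the third R1 −Met+Hcy library.

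R1 was also compared with HEK293T cells within each medium. These comparisons use the same libraries as those above, so their values are given side by side. In +Met no member passed, where 7.66% of genes tested passed both thresholds (4.71% higher, 2.95% lower in R1) and 10.2% the adjusted p alone (5.69% higher, 4.48% lower). Of 4 genes of SAM supply, 2 were lower in R1. MAT2A had a log2 fold change of −0.92 (SE 0.21, adjusted p = 0.0167), which passed in 21 of 25 alternatives, and MAT2B, which encodes the regulatory subunit of the same enzyme, one of −0.92 (SE 0.27, adjusted p = 0.0494), which passed in 10. With library totals in place of TMM they were at −0.57 (adjusted p = 0.124) and −0.58 (adjusted p = 0.133). METTL16 was at −0.17 (adjusted p = 0.562). WTAP was lower in R1 by a log2 fold change of −0.81 (SE 0.26, adjusted p = 0.0642) and YTHDF1 by −0.45 (SE 0.15, adjusted p = 0.0748), with no overlap between the lines for either. Without the third R1 −Met+Hcy library both passed, at adjusted p of 0.0044 and 0.0109, in a fit where 32.7% of all genes did. METTL3 differed by −0.30 (adjusted p = 0.212) and YTHDF2 by −0.15 (adjusted p = 0.59). With library totals in place of TMM these values were 0.05 and 0.21, the median of all genes was 0.37, and 2251 genes were called higher and 357 lower on adjusted p, against 976 and 769 with TMM. The other members had log2 fold changes between −0.29 (YTHDC2) and 0.24 (YTHDC1), with METTL14 at 0.16, YTHDF3 at −0.14, FTO at −0.10 and ALKBH5 at 0.02, and adjusted p of 0.353 to 0.99. With 1 library left out, YTHDC2 ranged from −0.41 to −0.17, YTHDC1 from 0.09 to 0.41 and METTL14 from 0.10 to 0.20. YTHDF3 then ranged from −0.23 to −0.09 and FTO from −0.18 to −0.02. Groups did not overlap for 5 members, 1 higher and 4 lower in R1, against 42.9% of all genes (22.2% higher, 20.7% lower).

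In −Met+Hcy the 3 YTHDF readers were lower in R1 than in HEK293T cells. YTHDF2 had a log2 fold change of −1.06 (SE 0.15, adjusted p = 0.00105) and passed both thresholds, as did 9.95% of genes tested (5.29% higher, 4.66% lower). YTHDF1 at −0.59 (SE 0.15, adjusted p = 0.0197) and YTHDF3 at −0.61 (SE 0.17, adjusted p = 0.0354) passed on adjusted p alone, as did 14% of genes (7.2% higher, 6.76% lower). Of 11643 genes with a mean log2 CPM over 2, 941 passed as higher and 982 as lower. YTHDF2 passed the adjusted p in all 25 alternatives, YTHDF1 in 19 and YTHDF3 in 12. Without the third R1 −Met+Hcy library YTHDF2 was at −0.97 (adjusted p = 0.000175) and no longer past the fold threshold. WTAP was at −0.76 (adjusted p = 0.0669) and at −1.10 (adjusted p = 0.00162) without the third R1 library, where it was the member past both thresholds, with 2573 of 17069 genes past both and 30.3% past the adjusted p. METTL3 was at 0.40 (SE 0.15, adjusted p = 0.0915), higher in each R1 library than in each HEK293T library, and at 0.38 (adjusted p = 0.0413) without the third R1 library. FTO went from −0.39 (adjusted p = 0.111) to −0.42 (adjusted p = 0.0333) without that library. METTL14 was at 0.39, YTHDC1 at 0.29 and ALKBH5 at −0.72 with all libraries, and at 0.09, −0.14 and −0.32 without it. YTHDC2 was at −0.51 (adjusted p = 0.0901). Groups did not overlap for 8 members, 1 higher and 7 lower in R1, against 32.5% of all genes (13.6% higher, 18.9% lower). Among the other genes of the pathway, RBM15 was lower in R1 (−1.13, adjusted p = 0.0045, and −0.97, adjusted p = 0.00183, without the third R1 library), as was METTL16 (−0.59, adjusted p = 0.0335). METTL16 passed in 13 of 25 alternatives. The reported readers FMR1 (1.00, adjusted p = 0.0363) and IGF2BP3 (0.70, adjusted p = 0.0363) were higher. FMR1 passed in 16 of 25 alternatives and IGF2BP3 in 14, and with 1 library left out they passed in 6 and 5 of 12 fits. Without the third R1 library they were at 0.62 (adjusted p = 0.0479) and 0.45 (adjusted p = 0.0227). MAT2A was at −0.40 (adjusted p = 0.215), and at −0.20 without the third R1 library.

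Genes whose log2 CPM followed that of YTHDF2 most closely over the 12 libraries were RDH14 (Pearson r = 0.989), POMGNT2 (0.985), RBM4B (0.985), HEY1 (0.983) and DUSP10 (0.981), of 10965 genes compared. The libraries share groups, depth and the library that stood apart, and 2.15% of genes had an r over 0.9, so these values describe the 12 libraries only. Without the third R1 −Met+Hcy library the closest 5 were TAB2, SMG8, ZNF689, CNPY1 and H1-10, and 0 of the first 5 were among them.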

How the data were processed

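RNA of HEK293T and R1 cells was sequenced at 12 h, in 4 groups of 3 libraries set by line and medium. The authors quantified reads with kallisto 0.48.0 (submitters' processing notes) on GRCh38. They deposited estimated counts per Ensembl gene, which the authors had converted to whole numbers. No column of the table was left unused (0). R1 samples were grouped by their titles.

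Genes with a summed count of 10 or more over the 12 libraries were tested, 17162 of 23500. All groups were fitted together in R 4.3.3 with edgeR 4.0.16 (TMM, glmQLFit, glmQLFTest, 8 residual degrees of freedom), with Benjamini-Hochberg adjusted p over the 17162 genes. The 5 comparisons were the medium within each line, the R1 response minus the HEK293T response, and the lines against each other in each medium. A gene was called at an adjusted p under 0.05 and an absolute log2 fold change over 1, and counts on adjusted p alone are given beside it. DESeq2 1.42.0 (Wald test), other scalings and filters, GC offsets (loess span 0.3, 15857 genes), the replicate block and each library left out were alternatives. The script was tested on simulated data.

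All 10 members are named in each comparison, METTL16 and MAT2A too, and from each pathway list up to 3 genes past the adjusted p. Likeness used log2 CPM with a prior count of 2. The members and lists were chosen with earlier results of these data known. The libraries of other cell lines and the other assays of the study were not analysed here. Depth limits each count's precision to counting error at best; METTL14, the least counted member, had at least 238 counts in each library.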

Additional observations from a re-analysis of the deposited data

How the results depend on the processing

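The common dispersion, which all 5 comparisons share, was 0.109 with the third R1 −Met+Hcy library and 0.0349 without it. In HEK293T cells the direction of 9 of 10 members was the same in all 25 alternatives, and YTHDC2 was the exception. Over all members and comparisons, 1230 values were recomputed under alternatives. Of these, 1040 kept direction and side of the threshold, 94 newly passed it, 37 fell short of it and 59 had the opposite sign. Library totals in place of TMM, the GC trend with the third R1 −Met+Hcy library left out, and DESeq2 with that library left out were chosen after the data were seen. Over all genes, the number past the adjusted p in the HEK293T response was 1207, and it was 2237 with DESeq2, 5562 with edgeR on the libraries of the comparison, 2553 with the GC trend removed, 4731 without the third R1 −Met+Hcy library and 289 to 516 without a HEK293T library. The causes of the changes were not tested.

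The share of all genes past the adjusted p in the same fit stands in brackets after each count. With DESeq2 on all libraries, the members past the adjusted p numbered 6 in the HEK293T response (13%), 2 in the difference of the responses (1.43%), 3 in R1 against HEK293T in +Met (16.8%) and 7 in R1 against HEK293T in −Met+Hcy (20.6%). With DESeq2 and without the third R1 −Met+Hcy library, the members past the adjusted p numbered 9 in the HEK293T response (31.2%), 1 in the R1 response (0.369%), 3 in the difference of the responses (6.01%), 3 in R1 against HEK293T in +Met (36.1%) and 7 in R1 against HEK293T in −Met+Hcy (33.5%). Log2 fold changes then had the opposite sign for METTL3 at −0.019 and ALKBH5 at 0.18 in the R1 response, for METTL14 at −0.068, WTAP at −0.28 and YTHDC1 at −0.37 in the difference of the responses and for YTHDC1 at −0.15 in R1 against HEK293T in −Met+Hcy. With DESeq2 on the libraries of each comparison, the members past the adjusted p numbered 9 in the HEK293T response (34.8%) and 2 in R1 against HEK293T in +Met (33%). With the GC trend removed, the members past the adjusted p numbered 5 in the HEK293T response (16.1%), 2 in R1 against HEK293T in +Met (19.5%) and 7 in R1 against HEK293T in −Met+Hcy (24.3%). Log2 fold changes then had the opposite sign for METTL3 at −0.018, YTHDF3 at −0.11 and FTO at −0.019 in the R1 response, for METTL14 at −0.17, WTAP at −0.16 and YTHDC1 at −0.33 in the difference of the responses and for YTHDF3 at 0.056 and ALKBH5 at −0.13 in R1 against HEK293T in +Met. With the GC trend and the third R1 −Met+Hcy library removed, the members past the adjusted p numbered 7 in the HEK293T response (31.7%), 2 in the difference of the responses (3.71%), 3 in R1 against HEK293T in +Met (35.9%) and 7 in R1 against HEK293T in −Met+Hcy (32.4%). Members past both thresholds then numbered 0 in R1 against HEK293T in −Met+Hcy (2316 of 15798 genes). Log2 fold changes then had the opposite sign for METTL3 at −0.027 and ALKBH5 at 0.21 in the R1 response, for METTL14 at −0.074, WTAP at −0.23 and YTHDC1 at −0.37 in the difference of the responses and for YTHDF3 at 0.060 and ALKBH5 at −0.13 in R1 against HEK293T in +Met. With edgeR on the libraries of each comparison, the members past the adjusted p numbered 9 in the HEK293T response (34.2%), 2 in R1 against HEK293T in +Met (30%) and 1 in R1 against HEK293T in −Met+Hcy (3.01%). With library totals in place of TMM, the members past the adjusted p numbered 6 in the HEK293T response (11.7%). Members past both thresholds then numbered 2 in the HEK293T response (1314 of 17162 genes). Log2 fold changes then had the opposite sign for METTL3 at −0.026 in the R1 response, for METTL14 at −0.15, WTAP at −0.31 and YTHDC1 at −0.33 in the difference of the responses and for METTL3 at 0.048, YTHDF2 at 0.21, YTHDF3 at 0.21, YTHDC2 at 0.059, FTO at 0.25 and METTL16 at 0.18 in R1 against HEK293T in +Met. With the GC trend removed and a replicate block, the members past the adjusted p numbered 2 in R1 against HEK293T in +Met (14.6%) and 6 in R1 against HEK293T in −Met+Hcy (19.4%). Log2 fold changes then had the opposite sign for METTL3 at −0.017, YTHDF3 at −0.12 and FTO at −0.021 in the R1 response, for METTL14 at −0.16, WTAP at −0.15 and YTHDC1 at −0.32 in the difference of the responses and for YTHDF3 at 0.057 and ALKBH5 at −0.12 in R1 against HEK293T in +Met.

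With each of the 12 libraries left out in turn, the members past the adjusted p ranged from 1 to 8 in the HEK293T response (1.7 to 27.7% of all genes), 0 to 1 in the difference of the responses (0 to 1.69%), 0 to 2 in R1 against HEK293T in +Met (3.67 to 32.7%) and 1 to 6 in R1 against HEK293T in −Met+Hcy (6.34 to 30.3%), and members past both thresholds ranged from 0 to 1 in R1 against HEK293T in +Met. Log2 fold changes that crossed 0 ranged from −0.038 to 0.15 for YTHDC2 in the HEK293T response, −0.024 to 0.062 for METTL3 in the R1 response, −0.54 to 0.19 for ALKBH5 in the R1 response, −0.074 to 0.38 for METTL14 in the difference of the responses, −0.28 to 0.28 for WTAP in the difference of the responses, −0.38 to 0.32 for YTHDC1 in the difference of the responses, −0.071 to 0.14 for ALKBH5 in R1 against HEK293T in +Met and −0.14 to 0.56 for YTHDC1 in R1 against HEK293T in −Met+Hcy. The R1 change in the YTHDF2 share of YTHDF counts was 0.193 percentage points, and ranged from −1.77 to 2.84.

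The labels number the libraries 1 to 3 in each group. Deviations of same-numbered libraries correlated between −0.718 and 0.594, 6 of 18 such pairs were over 0.1, and 4 of 12 libraries matched their own number best, so the numbers were not taken as pairs. With the replicate block alone, the members past the adjusted p numbered 1 in the HEK293T response (3.6%) and 1 in R1 against HEK293T in −Met+Hcy (9.67%). Over all genes 618 passed the adjusted p with the block and 1207 without it, and METTL3 then had an adjusted p of 0.0545 and YTHDF3 one of 0.0604 in HEK293T cells, where RBMX was at 0.0752. In R1 against HEK293T the block also left above the threshold MAT2B (adjusted p = 0.0932) in +Met, and YTHDF1 (0.0544), YTHDF3 (0.0572), METTL16 (0.069), FMR1 (0.0779) and IGF2BP3 (0.0692) in −Met+Hcy. With the GC trend removed as well, MAT2A in the R1 response was at 0.0847.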
